A study of Homo sapiens with 12 samples.

Results

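The 10 genes described here handle iron and heme: the ferritin chains FTL and FTH1 and the ferritin receptor NCOA4, the iron carriers TFRC, SLC11A1, SLC11A2 and SLC40A1, and the heme-breakdown enzymes HMOX1, BLVRA and BLVRB. They were taken by symbol from the 57992 Ensembl genes of the count table, and all 10 were found and had counts high enough to be tested. The cells were human induced microglia-like cells (iMGLs), differentiated in culture from H1 pluripotent stem cells, and their total RNA was sequenced in 12 libraries. Cells without an edit (WT) and MEF2C knockout cells (KO) were each measured without LPS, in 3 libraries per genotype. LPS, a bacterial cell-wall component that activates microglia, was given to WT cells (WT LPS, 2 libraries) and to knockout cells (KO LPS, 2 libraries). Knockout cells given LPS together with BMS265246, an inhibitor of cyclin-dependent kinases, made up the group KO LPS BMS (2 libraries). No WT cells and no cells without LPS received the inhibitor, so its values compare only with those of LPS-treated or resting knockout cells. MEF2C is a transcription factor of the myeloid and neuronal lineages. Doses, times, the position of the edit and the number of knockout clones are not stated in the labels, which call the libraries biological replicates without saying whether they came from separate differentiations.

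Most cells take up iron bound to transferrin through the transferrin receptor, release it from endosomes through divalent metal transporters, store the excess inside the ferritin shell and export it through ferroportin. Macrophages and microglia also gain iron from engulfed cells, whose heme is split by heme oxygenase into iron, carbon monoxide and biliverdin. Much of this system is controlled after transcription: iron regulatory proteins bind hairpins called iron-responsive elements, which block translation when they lie in a 5′ UTR and protect the mRNA from decay when they lie in a 3′ UTR. During infection macrophages are known to hold iron back from microbes by raising ferritin and lowering ferroportin.

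Hairpin matches in the genes' own transcripts are shown because part of the known control of iron genes acts through them. Each line gives 29 bases of the RNA strand in DNA letters around a hairpin match, and the 6 loop bases are in capitals. The letters came from the transcripts of GENCODE release 29, on the GRCh38 build.
FTL, 5′ UTR, chr19:48965341-48965357, plus strand: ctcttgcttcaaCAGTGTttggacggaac
SLC40A1, 5′ UTR, chr2:189580667-189580683, minus strand: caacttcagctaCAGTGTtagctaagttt
TFRC, 3′ UTR, chr3:196050985-196051001, minus strand: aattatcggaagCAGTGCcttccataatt
TFRC, 3′ UTR, chr3:196050581-196050597, minus strand: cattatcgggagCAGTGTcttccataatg
TFRC, 3′ UTR, chr3:196050516-196050532, minus strand: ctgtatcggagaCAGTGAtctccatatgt
TFRC, 3′ UTR, chr3:196050469-196050485, minus strand: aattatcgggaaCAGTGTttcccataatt

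The pattern searched was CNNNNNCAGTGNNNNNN on the transcript strand only, with the 5 bases on each side of the loop able to pair (G with T allowed); the coordinates give its 17 bases, and 6 more were printed on each side. It occurred in the longest protein-coding transcript of 260 of 19669 genes (1.32%), and TFRC was the one gene with at least 4 matches. FTH1 also held a match in the 5′ UTR of 7 of its 8 protein-coding transcripts. In SLC40A1 the match lay in 1 of 5 protein-coding transcripts, and in TFRC the 4 matches lay in 3 of 4. No transcript of NCOA4, SLC11A1, SLC11A2, HMOX1, BLVRA or BLVRB held these letters, which says only that this pattern is absent; SLC11A2 is known to carry an element of another shape in some of its transcripts. Counts per gene cannot show whether a hairpin was bound.

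Sequencing depth was 13888283 to 17639136 counts per library. Levels are given as CPM, counts brought to a common library total after scaling by trimmed mean of M values (TMM), which assumes that most genes do not change. Changes are log2 fold changes ± standard error (SE) from edgeR's quasi-likelihood test, and calls were made below 0.05 after Benjamini-Hochberg adjustment over the 16022 genes tested. The 12 microglial and macrophage markers were all present, the lowest being P2RY12 at 1.69 to 16.6 CPM, while 12 erythroid markers, whose cells are rich in heme and iron, summed to 0.552 to 1.42 CPM, with HBA2 and HBG1 among those at 0. MEF2C mRNA stood at 184 ± 7.86 CPM (SD, n = 3) in WT and 133 ± 4.01 CPM (SD, n = 3) in KO, a log2 fold change of -0.47 ± 0.05 with an adjusted p of 4e-07 (edgeR); because the edited position is not known, the remaining counts do not check the knockout.

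With TMM scaling, LPS changed all 10 genes in WT cells, 8 upward and 2 downward, while 59.7% of all tested genes were called (28.9% higher, 30.8% lower). In knockout cells the same 8 rose and the same 2 (SLC40A1 and BLVRB) fell, where 44.8% of tested genes were called (24.5% higher, 20.3% lower). Scaled by library size alone, 6 rose and 2 fell in each genotype, without FTL and HMOX1 in WT and without FTL and SLC11A1 in KO. That scaling called 2791 of 16022 tested genes higher and 7651 lower in WT, and 2195 and 6408 in KO. The median absolute log2 change was 1.09 over the members against 0.49 over all tested genes in WT, and 1.00 against 0.34 in KO. As bulk RNA was measured, fewer cells of a type and less RNA per cell cannot be told apart. A list of 7 markers of dissociation and heat shock, none of them at 0, summed to 2010 to 2124 CPM in WT and 2527 to 2596 in KO. It summed to 2996 to 3094 CPM in WT LPS, 2789 to 3028 in KO LPS and 1838 to 1860 in KO LPS BMS. Most of the sum was HSPA8 and HSP90AA1, with medians of 1274 and 858.5 CPM over the libraries. With LPS in WT, 3 of the 7 were higher and 0 lower (42.9% and 0%, against 28.9% and 30.8% of all tested genes). In KO, 2 were higher and 1 lower (28.6% and 14.3%, against 24.5% and 20.3%). The part of this list in the members' changes was not tested.

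**Figure D1:**
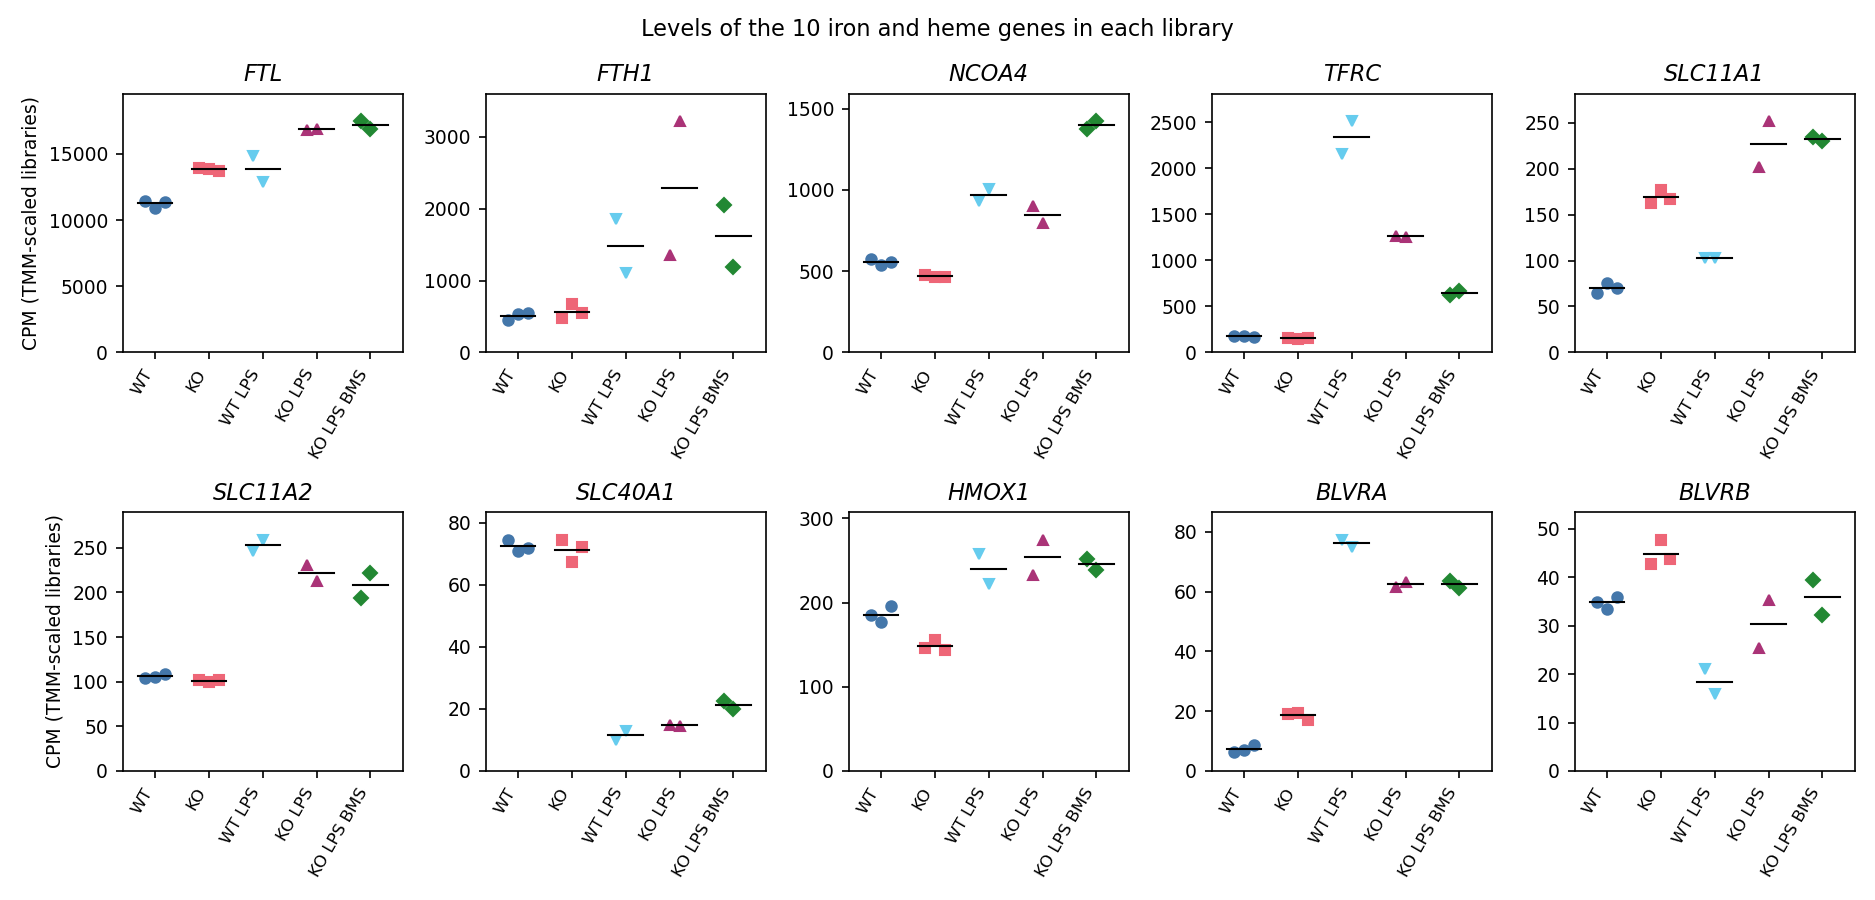
Levels of the 10 genes in CPM (vertical axes, linear and starting at 0), 1 point per library and 1 panel per gene; the black line is the group mean. TFRC is highest in WT LPS (2160 and 2512 CPM) and SLC40A1 lowest there (10.1 and 13.01 CPM), and FTH1 libraries of the LPS groups lie far apart.

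Without the stimulus, 7 of 10 members differed between KO and WT (4 higher, 3 lower), against 21.6% of tested genes (10.2% higher, 11.4% lower). With LPS in both genotypes, 8 of 10 differed (4 higher, 4 lower), against 30.6% (15.6% higher, 15.0% lower). All groups shared the estimate of the spread in that fit. The chi-square of replicate counts per degree of freedom was 6.88 in WT LPS and 11.14 in KO LPS, against 2.05 to 3.64 at rest. With only the compared groups fitted, 4 members and 2660 genes were called. The LPS response itself differed between genotypes for 3 members, TFRC, BLVRA and HMOX1, where 12% of tested genes were called by the interaction test (6.42% upward, 5.57% downward). The inhibitor changed 3 of 10 under LPS (NCOA4 and SLC40A1 higher, TFRC lower), against 47.8% of tested genes (22.3% higher, 25.5% lower), and the median absolute log2 change of the members was 0.17 against 0.39 over all. With TMM scaling, the inhibitor group still had 8 members higher and 2 lower than resting knockout cells, against 62.7% (30.3% higher, 32.4% lower). Scaled by library size alone, 6 were higher and 2 lower, without FTL and SLC11A1 (0.12, adjusted p = 0.148, edgeR). That scaling called 2852 of 16022 tested genes higher and 8071 lower. BLVRB, 1 of the 2 lower members, was not called in DESeq2 (adjusted p = 0.0514). The comparisons share groups, so their counts are not independent of each other.

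**Figure D2:**
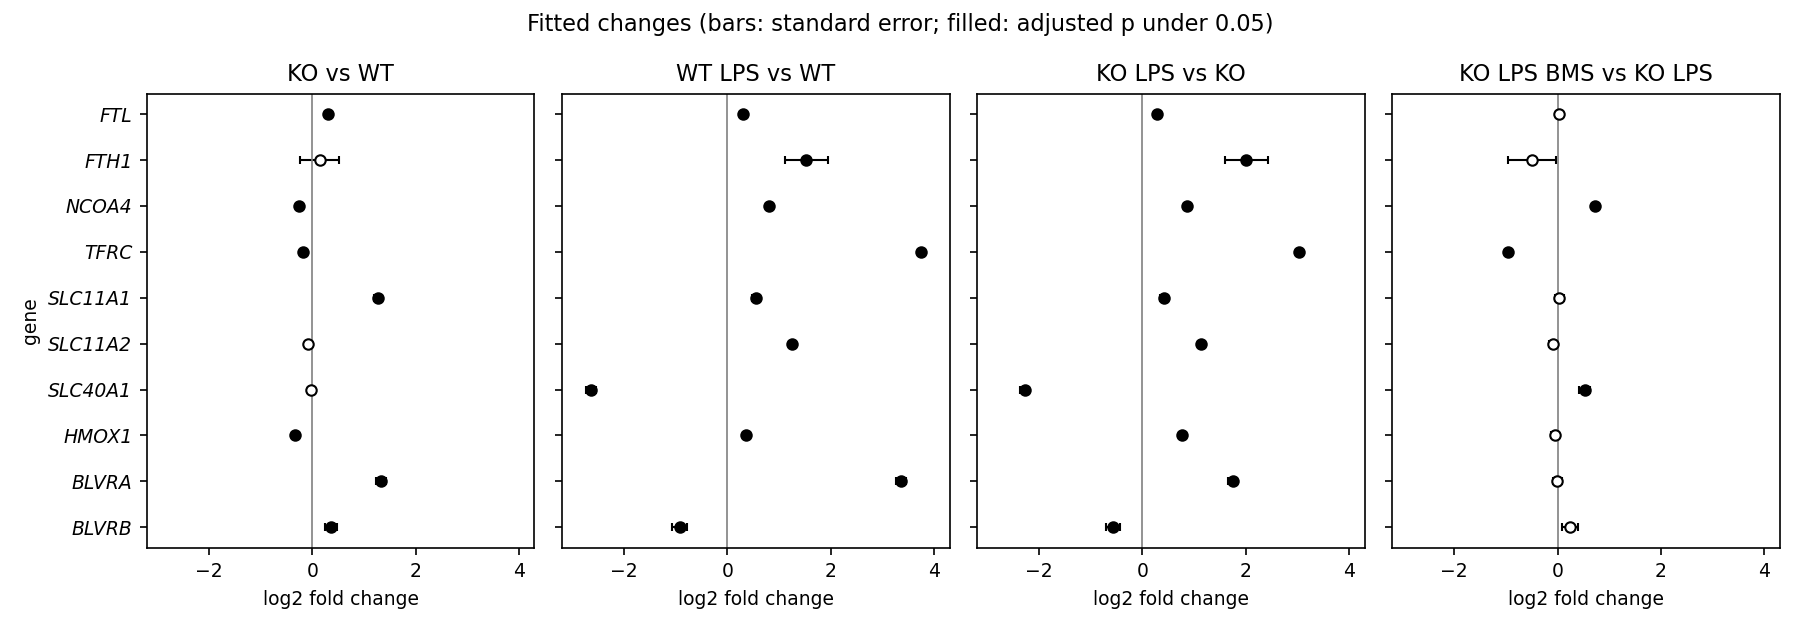
Fitted log2 fold changes (horizontal axes) of the 10 genes in 4 comparisons, with bars for the standard error; filled points passed an adjusted p of 0.05. LPS moves TFRC by 3.75 in WT and 3.04 in KO and SLC40A1 by -2.64 and -2.28, and the inhibitor leaves 7 of the 10 points unfilled.

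Per kilobase of exon, FTL stood far above every other member. In WT it was at 12810 ± 319 CPM per kb (SD, n = 3), followed by FTH1 at 253 ± 23.8, NCOA4 at 137 ± 4.99 and HMOX1 at 77.3 ± 4.01. TFRC (22.0 ± 0.24), BLVRB (20.6 ± 0.71), SLC40A1 (16.7 ± 0.41), SLC11A2 (10.5 ± 0.18), SLC11A1 (8.05 ± 0.62) and BLVRA (4.06 ± 0.66 CPM per kb) came next in that order, and no 2 neighbours overlapped between WT libraries. In KO the pairs TFRC with SLC11A1 (19.5 CPM per kb each) and BLVRA (10.2) with SLC11A2 (9.95) overlapped and had no clear order. Under LPS TFRC moved to 296 ± 31.5 CPM per kb in WT (SD, n = 2), above NCOA4 (238 ± 12.1), and SLC40A1 became the lowest member at 2.67 ± 0.48. In WT LPS the neighbours SLC11A1 (11.8) and BLVRB (10.9) overlapped, and in KO LPS BMS so did BLVRB (21.2) and SLC11A2 (20.5 CPM per kb). Exon lengths were summed over all annotated transcripts, so a gene whose cells use only its short forms is understated here.

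FTL encodes the ferritin light chain, which helps iron crystallize inside the shell. It was the gene with the most counts in 11 of 12 libraries, taking 1.17% to 1.58% of each. SOD2, mitochondrial superoxide dismutase, led in the remaining library, the second of WT LPS, with 1.171% against 1.166% for FTL. FTL levels were 11440, 10930 and 11380 CPM in WT, and 13900, 13870 and 13700 CPM in KO. The genotypes did not overlap, and FTL was higher in KO by 0.30 ± 0.04 on the log2 scale, with an adjusted p of 1.71e-05 (edgeR). With LPS the levels were 14840 and 12860 CPM in WT, 16800 and 16900 CPM in KO, and 17460 and 16890 CPM in KO with the inhibitor. The KO excess persisted under LPS, at 0.28 ± 0.05 with an adjusted p of 0.00029, and was 0.18 without the second WT LPS library (adjusted p = 0.00927).

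The rise of FTL with LPS depended on the scaling. With TMM it was 0.30 ± 0.05 in WT (adjusted p = 1.16e-05; 0.19 without the first WT LPS library) and 0.29 ± 0.05 in KO (adjusted p = 3.36e-05, edgeR). Scaled by library size alone it was 0.01 ± 0.05 in WT (adjusted p = 0.818) and 0.03 ± 0.05 in KO (adjusted p = 0.593), and the value for the inhibitor group against resting KO turned to -0.02. FTL took 1.21% to 1.25% of counts in WT and 1.17% to 1.34% in WT LPS, 1.52% to 1.55% in KO and 1.56% to 1.58% in KO LPS. As a share of all counts, FTL was thus higher in KO than in WT, while its ranges with and without LPS overlapped in WT and were narrowly separate in KO.

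FTH1, the ferritin heavy chain with the ferroxidase activity, was measured less tightly than any other member. Its levels were 458, 539 and 545 CPM in WT and 477, 679 and 551 CPM in KO, which overlapped. With LPS they were 1861 and 1109 CPM in WT, 1358 and 3218 CPM in KO, and 2056 and 1189 CPM with the inhibitor. Every LPS library thus lay above every library without LPS, and the 3 LPS groups overlapped each other. FTH1 rose with LPS by 1.53 ± 0.41 in WT (2.89-fold, adjusted p = 0.0141) and by 2.01 ± 0.42 in KO (4.02-fold, adjusted p = 0.00544, edgeR). It passed the test neither between genotypes (0.15 ± 0.38, adjusted p = 0.843) nor with the inhibitor (-0.50 ± 0.46, adjusted p = 0.417). Without the first WT LPS library the WT value was 1.11 with an adjusted p of 0.107, and without the second KO LPS library the KO rise was 1.26. The inhibitor group was above resting KO by 1.51 ± 0.41 (adjusted p = 0.0142), a call lost without its first library (1.07, adjusted p = 0.112).

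The biological coefficient of variation of FTH1 was 0.312, higher than in 99.3% of tested genes, while the other 9 members had 0.053 to 0.097. Replicates of FTH1 differed 1.68-fold in WT LPS, 2.37-fold in KO LPS and 1.73-fold in KO LPS BMS. In the library with the higher FTH1 of each LPS pair, genes of the top 20% of GC content were also higher than in its partner, by median log2 differences of 0.21, 0.33 and 0.17, and genes of the bottom 20% were lower, by -0.11, -0.11 and -0.07 (12787 genes). FTH1 differed by 0.75, 1.24 and 0.79 in those pairs, and its own GC content, 50.1%, was near the middle of these 12787 genes (percentile 53.5). GC content was that of each gene's longest protein-coding transcript, which need not be the form these cells use. BLVRB (63.3% GC) was higher in the same libraries by 0.40, 0.48 and 0.29, and HMOX1 (58.1% GC) by 0.21, 0.24 and 0.08. SLC11A1 (59.4% GC) differed in the same pairs by -0.01, 0.32 and 0.02, and FTL (56.3% GC) by 0.21, 0.01 and 0.05. BLVRA (50.9% GC), the member nearest to FTH1 in GC, differed by 0.045, 0.037 and 0.051. NCOA4, TFRC, SLC11A2 and SLC40A1 (41.5% to 43.1% GC) differed by -0.361 to 0.184. The part of GC content in these differences was not tested.

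FTH1 has many processed pseudogenes, copies without introns that can draw reads from its mRNA, and 25 rows of the table bear their names. Together they held 9.98 to 12.1 CPM in WT, 10.5 to 11.4 CPM in KO, 84.5 and 90.4 CPM in WT LPS, 55.8 and 61.3 CPM in KO LPS, and 40.9 and 46.7 CPM in KO LPS BMS. Unlike FTH1 itself, these sums lay close together within each group and did not overlap between the LPS groups. They amounted to 1.63% to 7.62% of the FTH1 counts, and adding them to FTH1 gave rises of the same call, 1.58 in WT and 2.02 in KO. How reads that match both were assigned is not stated in the labels. BEST1, which lies on the opposite strand and overlaps FTH1, had 184 to 723 counts, and without a stated strand setting reads of the overlap cannot be assigned.

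**Figure D3:**
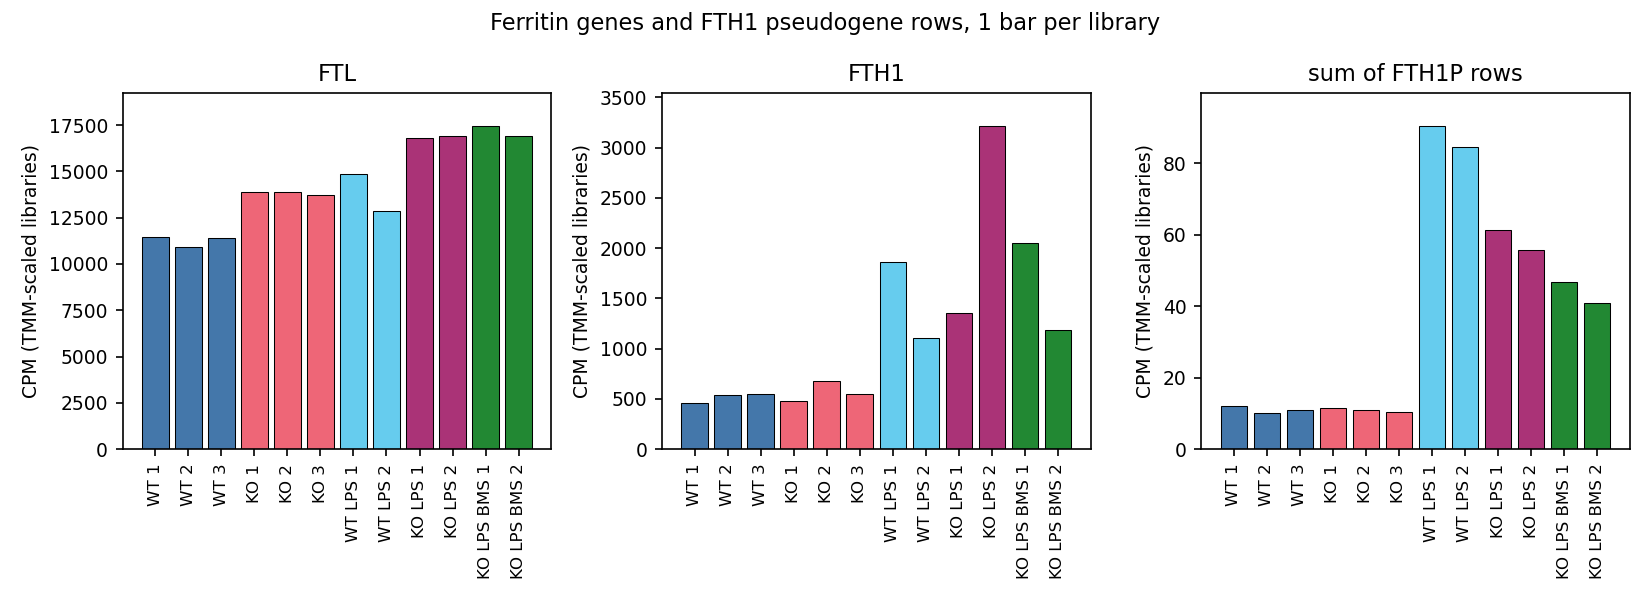
CPM of FTL, of FTH1 and of the summed FTH1 pseudogene rows, 1 bar per library, axes from 0. FTH1 replicates differ up to 2.37-fold in KO LPS, where the pseudogene sums are 55.8 and 61.3 CPM.

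NCOA4 delivers ferritin to lysosomes, where its iron is freed. Its levels were 577, 536 and 558 CPM in WT, and 477, 463 and 464 CPM in KO. With LPS they were 935 and 1005 CPM in WT and 900 and 794 CPM in KO, and 1373 and 1423 CPM with the inhibitor. The inhibitor libraries were above all others. NCOA4 was lower in KO by -0.25 ± 0.05 (adjusted p = 0.000615), rose with LPS by 0.80 ± 0.05 in WT and 0.86 ± 0.05 in KO, and rose further with the inhibitor by 0.72 ± 0.06 (1.65-fold, adjusted p = 2.89e-09, edgeR). Under LPS it was lower in KO by -0.20 ± 0.06 (adjusted p = 0.0172, edgeR). That call was lost with scaling by library size (adjusted p = 0.0776) and when only the compared groups were fitted (adjusted p = 0.128). It was also lost without the second WT LPS library (-0.15) or the second KO LPS library (-0.11). Without the first KO LPS library the difference was -0.31.

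TFRC, the transferrin receptor, showed the strongest response to LPS among the members. Its levels were 174, 175 and 172 CPM in WT, and 155, 151 and 156 CPM in KO. With LPS they reached 2160 and 2512 CPM in WT and 1267 and 1259 CPM in KO, and stood at 625 and 671 CPM with the inhibitor. The 5 groups did not overlap, so that WT LPS was highest, then KO LPS, KO LPS BMS, WT and KO. TFRC rose 13.4-fold in WT (3.75 ± 0.06, adjusted p = 6.77e-23) and 8.21-fold in KO (3.04 ± 0.06, adjusted p = 3.31e-21, edgeR). The response in KO was smaller by -0.71 ± 0.08 (adjusted p = 3.27e-06, interaction test), and the value stayed between -0.81 and -0.60 when each of the 12 libraries was left out in turn. The inhibitor lowered TFRC by -0.96 ± 0.06 (1.95-fold, adjusted p = 4.39e-11), to a level 4.21-fold above resting KO. Without LPS TFRC was lower in KO by -0.18 ± 0.05 (adjusted p = 0.017), a call lost without the second WT library (adjusted p = 0.0609) or the second KO library (adjusted p = 0.0772).

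SLC40A1, ferroportin, the known iron exporter of vertebrate cells, moved opposite to TFRC with LPS. It stood at 74.3, 70.9 and 71.8 CPM in WT, and at 74.5, 67.4 and 72.0 CPM in KO. LPS brought it to 10.1 and 13.01 CPM in WT and to 15.0 and 14.4 CPM in KO, and with the inhibitor it was at 22.5 and 19.8 CPM. The resting groups overlapped, and all LPS libraries lay far below them. SLC40A1 fell 6.24-fold in WT (-2.64 ± 0.10, adjusted p = 3.71e-16) and 4.86-fold in KO (-2.28 ± 0.09, adjusted p = 4.81e-15, edgeR). The inhibitor raised it by 0.53 ± 0.11 (1.44-fold, adjusted p = 0.000458), still 3.37-fold below resting KO. Under LPS it was higher in KO by 0.34 ± 0.12 (adjusted p = 0.0326, edgeR), and by 0.54 without the second WT LPS library. That call did not hold in DESeq2 (adjusted p = 0.0899) or in edgeR with only the compared groups fitted (adjusted p = 0.184). Nor did it hold without the first WT LPS library (0.17) or without either KO LPS library (0.28 and 0.37). The genotype difference in its LPS response did not pass the test (0.36 ± 0.14, adjusted p = 0.0903), but did without the second WT LPS library (0.56, adjusted p = 0.0202).

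**Figure D4:**
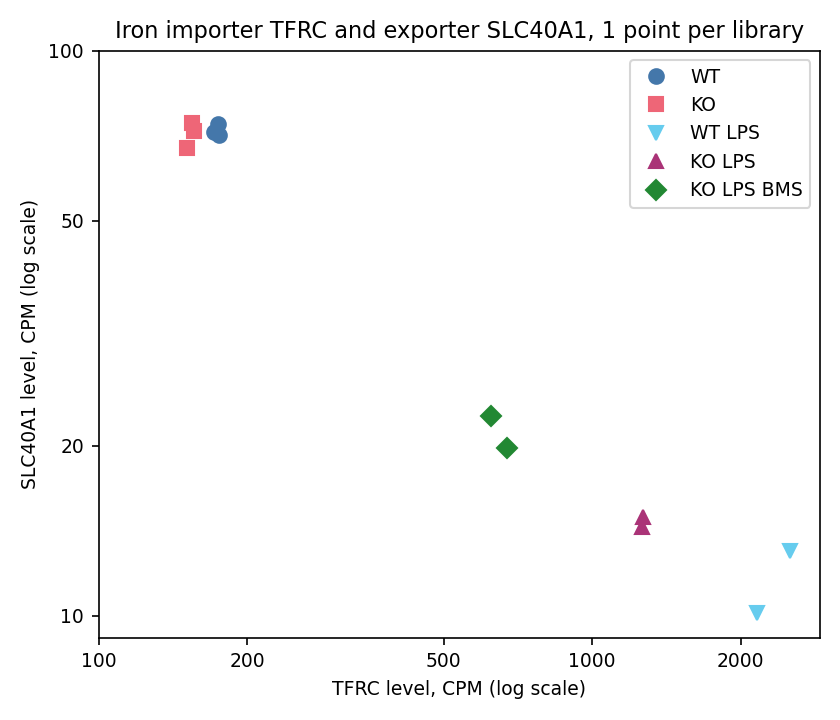
TFRC (horizontal) against SLC40A1 (vertical) in CPM, both on log scales, 1 point per library. The resting libraries of both genotypes sit at the upper left, the LPS libraries at the lower right, and the 2 inhibitor libraries between them, at 625 and 671 CPM of TFRC.

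SLC11A1 (NRAMP1), which pumps divalent metal out of the phagosomes of macrophages, was the transporter that followed genotype. Its levels were 64.4, 75.0 and 70.2 CPM in WT, and 162, 177 and 167 CPM in KO. With LPS they were 102 and 103 CPM in WT, 202 and 252 CPM in KO, and 234 and 230 CPM with the inhibitor. All KO libraries, treated or not, were above all WT libraries. SLC11A1 was 2.42-fold higher in KO without LPS (1.27 ± 0.07, adjusted p = 9.03e-11) and 2.20-fold higher with it (1.14 ± 0.09, adjusted p = 9.9e-09, edgeR). It rose with LPS by 0.56 ± 0.08 in WT and by 0.42 ± 0.08 in KO. The rise in KO was 0.26 without the second KO LPS library (adjusted p = 0.00623), and with library-size scaling it was 0.17 with an adjusted p of 0.0601. In the same comparisons, 12 markers of monocytes and border macrophages summed to 2220 to 2308 CPM in WT, 3564 to 3632 in KO, 3103 to 3121 in WT LPS, 4411 to 4586 in KO LPS and 3408 to 3619 in KO LPS BMS. Of these 12 markers, none was at 0, and 9 were higher and 1 was lower in KO without LPS. These were 75% and 8.3%, against 10.2% and 11.4% of all tested genes. With LPS in both genotypes, 8 were higher and 2 lower in KO (66.7% and 16.7%, against 15.6% and 15.0%). The part of these markers in the SLC11A1 difference was not tested.

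SLC11A2 (DMT1), which moves ferrous iron out of endosomes, rose with LPS in both genotypes. It was at 105, 106 and 108 CPM in WT, 102, 99.4 and 102 CPM in KO, 246 and 259 CPM in WT LPS, 230 and 213 CPM in KO LPS, and 194 and 222 CPM with the inhibitor. Every LPS library lay above every library without LPS. The rise was 2.38-fold in WT (1.25 ± 0.06, adjusted p = 5.25e-14) and 2.20-fold in KO (1.14 ± 0.06, adjusted p = 5.61e-13, edgeR). Without LPS the KO libraries lay below the WT libraries with no overlap, but the difference of -0.07 ± 0.06 did not pass the test (adjusted p = 0.416). Under LPS it was lower in KO by -0.19 ± 0.07 (adjusted p = 0.0355, edgeR). That call was lost without the third KO library (adjusted p = 0.0526) and with library-size scaling (adjusted p = 0.127). It was also lost when only the compared groups were fitted (adjusted p = 0.139). The same held without the second WT LPS library (-0.15) or the second KO LPS library (-0.14).

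HMOX1, heme oxygenase 1, the inducible enzyme that opens the heme ring, was at 185, 176 and 196 CPM in WT, and 146, 156 and 143 CPM in KO. With LPS it was at 257 and 222 CPM in WT, 233 and 275 CPM in KO, and 252 and 239 CPM with the inhibitor. KO was below WT without LPS, and the 3 LPS groups overlapped. HMOX1 was lower in resting KO by -0.32 ± 0.07 (1.25-fold, adjusted p = 0.00116, edgeR). Under LPS it differed between KO and WT by 0.08 ± 0.08, which did not pass the test (adjusted p = 0.486, edgeR). It rose with LPS by 0.37 ± 0.07 in WT (1.29-fold, adjusted p = 0.000222) and by 0.77 ± 0.07 in KO (1.71-fold, adjusted p = 2.98e-08). Scaled by library size alone, the rise in WT was 0.08 with an adjusted p of 0.309. The response was larger in KO by 0.40 ± 0.10 (adjusted p = 0.0147, interaction test). That call was lost without the second WT LPS library (0.31, adjusted p = 0.0849) and without the second KO LPS library (0.28, adjusted p = 0.0904).

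BLVRA, biliverdin reductase A, which turns biliverdin into bilirubin, was the member with the lowest level per kilobase in WT and the largest genotype effect on its LPS response. It stood at 6.48, 6.95 and 8.75 CPM in WT, and at 19.2, 19.4 and 17.1 CPM in KO. LPS brought it to 77.3 and 75.0 CPM in WT and to 61.6 and 63.2 CPM in KO, and it was at 63.5 and 61.3 CPM with the inhibitor. KO was thus above WT at rest and below WT under LPS. At rest BLVRA was 2.50-fold higher in KO (1.32 ± 0.10, adjusted p = 7.54e-10, edgeR). The rise with LPS was 10.3-fold in WT (3.36 ± 0.09) and 3.37-fold in KO (1.75 ± 0.09), and the response was smaller in KO by -1.61 ± 0.13 (adjusted p = 5.45e-08, interaction test). This difference ranged from -1.75 to -1.53 when each of the 12 libraries was left out in turn. Under LPS BLVRA was lower in KO by -0.29 ± 0.09 (adjusted p = 0.0166, edgeR). That call was lost without the first WT LPS library (-0.27) and when only the compared groups were fitted (adjusted p = 0.0524). The inhibitor left a difference of -0.001 ± 0.09 (adjusted p = 0.996).

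BLVRB, biliverdin reductase B, which acts mainly on fetal forms of biliverdin and on flavins, moved against BLVRA under LPS. Its levels were 34.9, 33.6 and 35.9 CPM in WT, and 42.7, 47.8 and 43.8 CPM in KO. They were 21.0 and 15.9 CPM in WT LPS, 25.4 and 35.3 CPM in KO LPS, and 39.5 and 32.3 CPM with the inhibitor. KO lay above WT both at rest and under LPS. BLVRB fell with LPS by -0.92 ± 0.15 in WT (1.89-fold, adjusted p = 8.06e-05) and by -0.56 ± 0.14 in KO (1.48-fold, adjusted p = 0.00361, edgeR). Under LPS it was 1.64-fold higher in KO (0.72 ± 0.16, adjusted p = 0.00396), and without the second KO LPS library the difference was 0.46 (adjusted p = 0.0262). The resting difference of 0.36 ± 0.12 had an adjusted p of 0.0393, and leaving out any 1 of the 6 resting libraries took it above the threshold (0.0623 to 0.136). The inhibitor group was below resting KO by -0.32 ± 0.13 with an adjusted p of 0.0494, which was lost in DESeq2 (adjusted p = 0.0514), without the second inhibitor library (-0.18, adjusted p = 0.382), and without any 1 of the 6 resting libraries (0.0585 to 0.129).

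The genes that surround the members were taken from 6 lists holding 90 genes. Each list's calls are set beside those over all tested genes, which were 28.9% higher and 30.8% lower with LPS in WT, 24.5% and 20.3% in KO, and 22.3% and 25.5% with the inhibitor. With library-size scaling, 2791 of the 16022 were higher and 7651 lower with LPS in WT, and 2195 and 6408 in KO. Among regulators of iron sensing and ferritin handling, 7 of 8 were tested, and in WT LPS 5 were higher and 1 was lower than in WT (71.4% and 14.3%, against 28.9% and 30.8% of all). ACO1, the cytosolic aconitase that becomes an iron regulatory protein when iron is scarce, rose from 41.0 ± 0.21 to 97.3 ± 6.68 CPM in WT (1.25 ± 0.07) and from 34.7 to 74.7 CPM in KO (1.11 ± 0.07). IREB2, the second iron regulatory protein, rose by 0.40 ± 0.07 in WT and 0.22 ± 0.07 in KO with TMM, but scaled by library size it was at 0.12 (adjusted p = 0.162) and -0.03 (adjusted p = 0.764). FBXL5, the iron-sensing ubiquitin ligase subunit that removes IREB2 protein, rose by 0.95 ± 0.06 and 0.83 ± 0.06 and was also higher in resting KO (0.53 ± 0.05, adjusted p = 7.62e-08, edgeR). HERC2, a ubiquitin ligase, fell by -0.88 ± 0.08 in WT and -0.49 ± 0.08 in KO. NUB1, whose place on this list rests on less certain ground, had the largest rise (2.47 ± 0.05 in WT). The median of the list was 0.40 in WT LPS against -0.07 over all tested genes, and with library-size scaling 3 genes were higher and 1 lower in each genotype.

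In the list of iron uptake, reductases and oxidases, 11 of 16 genes were tested, and LPS raised 7 and lowered 3 in WT and raised 6 and lowered 2 in KO (with library-size scaling 6 and 3 in WT, 5 and 3 in KO). These were 63.6% higher and 27.3% lower in WT, against 28.9% and 30.8% of all tested genes, and 54.5% and 18.2% in KO, against 24.5% and 20.3%. SLC39A8 (ZIP8), a zinc and iron importer, rose from 47.3 ± 2.34 to 811 ± 5.33 CPM in WT (4.10 ± 0.06) and from 58.8 ± 3.83 to 698 ± 3.23 CPM in KO (3.57 ± 0.06). STEAP4, a metalloreductase, rose from 4.40 ± 0.33 to 70.5 ± 7.83 CPM in WT (4.0 ± 0.11) and from 10.4 ± 0.49 to 112 ± 3.32 CPM in KO (3.43 ± 0.10). Both responses were smaller in KO, by -0.53 ± 0.08 for SLC39A8 (adjusted p = 0.000173) and by -0.57 ± 0.15 for STEAP4 (adjusted p = 0.0165, interaction test in edgeR). The inhibitor lowered SLC39A8 to 187 ± 6.88 CPM (-1.90 ± 0.06) and STEAP4 to 21.1 ± 3.60 CPM (-2.40 ± 0.10), both still above resting KO. CYBRD1, a ferric reductase, fell with LPS by -0.90 ± 0.06 in WT and -0.55 ± 0.07 in KO. MCOLN1, a lysosomal channel that releases iron, fell by -0.90 ± 0.11 and -0.43 ± 0.11 and rose with the inhibitor by 0.47 ± 0.12.

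HAMP, which encodes hepcidin, the peptide that binds ferroportin and sends it for degradation, stood out within its list. It was at 38.4, 33.4 and 38.0 CPM in WT, 28.8, 24.9 and 24.4 CPM in KO, 329 and 253 CPM in WT LPS, 102 and 112 CPM in KO LPS, and 22.5 and 20.6 CPM with the inhibitor. WT LPS was highest, and the inhibitor libraries were the lowest of all 12. HAMP rose 7.95-fold in WT (2.99 ± 0.11) and 4.12-fold in KO (2.04 ± 0.11), and the response was smaller in KO by -0.95 ± 0.15 (adjusted p = 0.00142, interaction test in edgeR). It fell 4.97-fold with the inhibitor (-2.31 ± 0.13, adjusted p = 6.56e-09) and then did not pass the test against resting KO (-0.27 ± 0.13, adjusted p = 0.0897). Hepatocytes are the cells best known for hepcidin. Of their 5 markers, ALB, APOA1, TTR and FGB had medians of 0 to 0.11 CPM over the libraries, with a highest value of 5.91 CPM for ALB, and the list's sum (193 to 700 CPM) was nearly all SERPINA1, which myeloid cells also make. Of the other hepcidin-axis genes, SMAD6, an inhibitor of the signal that drives HAMP, fell with LPS by -1.38 ± 0.12 in WT and -1.0 ± 0.11 in KO, and with the inhibitor by -1.57 ± 0.14. SMAD7, another such inhibitor, fell with LPS by -0.63 ± 0.06 and -0.37 ± 0.06 but rose with the inhibitor by 0.78 ± 0.07 (adjusted p = 5.79e-09, edgeR). Over the list's 13 tested genes 5 rose and 3 fell with LPS in WT, and 5 rose and 4 fell in KO (4 and 4, and 4 and 5, with library-size scaling). In WT that was 38.5% higher and 23.1% lower, against 28.9% and 30.8% of all tested genes. In KO it was 38.5% and 30.8%, against 24.5% and 20.3%. Over all 16022 tested genes, library-size scaling called 2791 higher and 7651 lower in WT, and 2195 and 6408 in KO. The counts of these 13 genes moved with the scaling, so no shift of the list as a whole is read from them.

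Genes for making heme moved mostly downward with LPS. Of 11 tested, 1 rose and 9 fell in WT, and 1 rose and 6 fell in KO, with list medians of -0.60 and -0.62 against -0.07 and 0.00 over all tested genes. The falls were 81.8% of the list in WT, against 30.8% of all tested genes, and 54.5% in KO, against 20.3%. The counts were 1 and 9 in both genotypes with library-size scaling, and 1 and 7 in WT and 1 and 6 in KO with DESeq2. Library-size scaling called 2791 of all 16022 tested genes higher and 7651 lower in WT, and 2195 and 6408 in KO. The gene that rose was ALAS1, the first enzyme of the path, from 269 ± 11.8 to 392 ± 16.4 CPM in WT (0.54 ± 0.05) and from 302 ± 5.54 to 495 ± 6.93 CPM in KO (0.71 ± 0.05). ALAD, the next enzyme, fell from 96.5 ± 1.73 to 33.3 ± 3.02 CPM in WT (-1.54 ± 0.07) and from 86.3 ± 2.94 to 42.2 ± 1.34 CPM in KO (-1.03 ± 0.07), a smaller fall in KO by 0.51 ± 0.10 (adjusted p = 0.00138, interaction test in edgeR). FECH, ferrochelatase, which inserts the iron, fell by -0.70 ± 0.07 in WT and -0.69 ± 0.07 in KO.

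Mitochondrial iron and iron-sulfur cluster genes moved both ways with TMM, 5 of 21 higher and 7 lower with LPS in WT and 5 higher and 5 lower in KO. These shares, 23.8% and 33.3% in WT and 23.8% each in KO, were close to those over all tested genes (28.9% and 30.8%, and 24.5% and 20.3%). With library-size scaling more were lower, 12 against 5 higher in WT and 13 against 4 in KO. All tested genes shifted likewise, with 7651 lower against 2791 higher in WT and 6408 against 2195 in KO. SLC25A37 (mitoferrin 1), which carries iron into mitochondria, rose from 40.3 ± 2.84 to 117 ± 1.49 CPM in WT (1.53 ± 0.07) and from 64.9 ± 2.49 to 165 ± 7.35 CPM in KO (1.35 ± 0.07). It was higher in resting KO by 0.69 ± 0.06 and fell with the inhibitor by -0.62 ± 0.07. FDXR, ferredoxin reductase, fell by -1.95 ± 0.18 in WT and -0.79 ± 0.15 in KO, a difference of 1.16 ± 0.24 (adjusted p = 0.00285, interaction test in edgeR). With the inhibitor 1 gene of the list rose and 9 fell (42.9%, against 25.5% of all tested genes), among them NFU1, a cluster carrier (-0.80 ± 0.11).

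Among genes of heme transport, scavenging and the control of HMOX1, 14 of 17 were tested, of which 7 rose and 4 fell with LPS in WT and 10 rose and 3 fell in KO. The higher share was 50% in WT and 71.4% in KO, against 28.9% and 24.5% of all tested genes, and the lower share, 28.6% and 21.4%, was close to the 30.8% and 20.3% over all. With library-size scaling 6 rose and 7 fell in WT, and 7 rose and 4 fell in KO. Over all 16022 tested genes that scaling gave 2791 higher and 7651 lower in WT, and 2195 and 6408 in KO. NFE2L2 (NRF2), an activator of HMOX1, rose from 89.1 ± 0.51 to 357 ± 2.29 CPM in WT (2.00 ± 0.06) and from 73.3 ± 2.06 to 248 ± 18.01 CPM in KO (1.76 ± 0.06). BACH1, its heme-sensing repressor, rose as well, by 1.24 ± 0.06 in WT and 1.00 ± 0.06 in KO. The inhibitor raised NFE2L2 to 464 ± 17.2 CPM (0.90 ± 0.06), MAFG, a partner of both, from 122 ± 4.43 to 293 ± 4.50 CPM (1.26 ± 0.07), and BACH1 by 0.86 ± 0.07, while HMOX1 differed by -0.05 ± 0.08 (adjusted p = 0.666). CD163, the hemoglobin-haptoglobin receptor, which is also one of the border macrophage markers, was higher in resting KO (523 ± 6.36 against 935 ± 22.4 CPM, 0.84 ± 0.04). LRP1, which takes up heme bound to hemopexin, fell with LPS from 1142 ± 81.7 to 491 ± 43.6 CPM in WT (-1.22 ± 0.08) and from 1392 ± 104 to 1018 ± 93.1 CPM in KO (-0.45 ± 0.08). SLC46A1, a carrier of heme and folate, fell by -2.16 ± 0.12 and -1.99 ± 0.12.

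For 4 members, 1 per role, the genes with the most similar pattern were ranked by Pearson's r of log2 CPM over 12 libraries among 10579 genes, as a description. The libraries fall into those with and without LPS, so any gene with a strong response scores high. TFRC was closest to DSE (r = 0.998), TPD52 (0.997) and GBP2 (0.996), which were also highest in WT LPS, then KO LPS, then KO LPS BMS. SLC40A1 was closest to ARPIN (0.994), ABHD2 (0.992) and TM7SF3 (0.992). FTH1, with its wide replicate spread, was closest to IER3 (0.987), SBNO2 (0.982) and PIM3 (0.982), and HMOX1 to BCL3 (0.989), MYBPH (0.974) and ARAP1 (0.974).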

How the data were processed

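Total RNA of 12 cultures was sequenced after library preparation with a NEBNext Ultra RNA kit, per the labels' protocols. As deposited by the authors, the data are a single table of unnormalized read counts, with 1 column per library. CASAVA 1.7, Cufflinks and GRCh38 are named in the submitters' processing notes. Aligner, read counter, strand setting and annotation release: not given in the sources used here. Groups and replicate numbers came from the sample titles. Total counts were 13888283 to 17639136 per library, and 3 counts, the limit a count of 0 allows, correspond to 0.154 to 0.236 CPM. Symbols, positions and exon lengths came from a table of gene names and GENCODE release 29; 604 IDs had no symbol.

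Counts were scaled by TMM (factors 0.872 to 1.117), filtered with filterByExpr and fitted in edgeR 4.0.16 (R 4.3.3; robust quasi-likelihood F test, 2-sided, all 12 libraries, 1 mean per group, 7 contrasts), with Benjamini-Hochberg adjustment over 16022 genes. SE is the log2 fold change divided by the square root of F. Alternatives were DESeq2 1.42.0, scaling by library size, no filter, only the groups compared, the replicate number as a block, ferritin pseudogene counts added, and leaving out each library.

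All 10 members are reported. From each list, the text names genes among those called with the lowest adjusted p, a mean of at least 5 CPM and groups that did not overlap (at most 2 per comparison and direction), with members' known partners IREB2 and FBXL5 and BACH1 in further comparisons. The members, lists and rules were chosen with earlier results of these data known. Replicate numbers were not taken as pairs of libraries.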

Additional observations from a re-analysis of the deposited data

Results flagged for a closer look

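The LPS response of 3 members differed between genotypes by the interaction test in edgeR, KO minus WT. For TFRC the difference was -0.712 ± 0.079 (SE, adjusted p = 3.27e-06), with rises of 3.75 in WT and 3.04 in KO and all 4 LPS libraries above all 6 resting ones. For BLVRA it was -1.61 ± 0.13 (adjusted p = 5.45e-08), with rises of 3.36 in WT and 1.75 in KO from resting levels that already differed. For HMOX1 it was 0.404 ± 0.105 (adjusted p = 0.0147), with rises of 0.37 in WT and 0.77 in KO. Resting HMOX1 was lower in KO (-0.32 ± 0.07, adjusted p = 0.00116), and under LPS the genotypes differed by 0.08 ± 0.08 (adjusted p = 0.486, edgeR). The HMOX1 interaction rested on the second library of WT LPS and of KO LPS. Groups of 2 and 3 libraries were not tested for single outlying values.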

How the results depend on the processing

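Of 1280 alternative values of members, 1205 kept their direction and call, 46 lost the call, 6 gained it and 23 changed sign, all 23 in values that were not called except FTL in KO LPS BMS against KO. With library-size scaling the median log2 change of all genes moved from -0.07 to -0.36 in WT LPS against WT, from 0.00 to -0.26 in KO LPS against KO and from -0.06 to -0.39 in KO LPS BMS against KO, and upward calls as a share of all calls went from 48.4% to 26.7%, from 54.7% to 25.5%, from 48.4% to 26.1% and, for the interaction, from 53.5% to 65.3%. Under it FTL changed sign in the interaction (0.019), in KO LPS BMS against KO LPS (-0.057) and against KO (-0.024), and SLC11A1 in KO LPS BMS against KO LPS (-0.046). BLVRA in KO LPS BMS against KO LPS turned to 0.027 in DESeq2, 0.034 with no filter and 0.015 with only the groups compared. That last setting, which fits fewer libraries, called 4 members and 2660 genes in KO LPS against WT LPS, in place of 8 and 4900. The calls lost there were NCOA4 (adjusted p = 0.128), SLC11A2 (0.139), SLC40A1 (0.184) and BLVRA (0.0524, all edgeR). The setting called more genes than the main fit in KO against WT (4426 against 3463) and fewer in KO LPS BMS against KO LPS (6593 against 7658). It also moved upward calls in the interaction to 42.4% of all calls.

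Leaving out single libraries gave 5 to 8 members called in KO LPS against WT LPS and 3 to 5 in KO LPS BMS against KO LPS, with 5 in both cases when the second KO LPS library was left out; in the first comparison 3005 genes were called without it and 3138 without the second WT LPS library. The interaction, with 1920 genes in the main test, had 1212 without the second WT LPS library, 1162 without the second KO LPS library and 3079 without the first. Sign changes on leaving out a library lay in these ranges: SLC40A1 in KO against WT, -0.052 to 0.019; in KO LPS against WT LPS, FTH1 -0.13 to 1.09 and HMOX1 -0.046 to 0.186; in the interaction, FTL -0.11 to 0.096, FTH1 -0.27 to 0.94 and NCOA4 -0.066 to 0.145; in KO LPS BMS against KO LPS, FTH1 -0.949 to 0.255, SLC11A1 -0.073 to 0.203, SLC11A2 -0.194 to 0.007, HMOX1 -0.12 to 0.077 and BLVRA -0.027 to 0.028. The causes were not tested.

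Deviations from the group means correlated with r from -0.14 to 0.10 between same-numbered libraries (21 pairs). Between libraries of other numbers r was -0.10 to 0.14 (36 pairs). In groups of 2 the deviations mirror each other, so many of these values are not independent and the check cannot exclude a pairing. The numbers were not taken as pairs. With the replicate number as a block, 4454 genes and 6 members were called in KO LPS against WT LPS, and adjusted p moved to 0.0929 for BLVRB in KO against WT, 0.0507 for FTH1 in WT LPS against WT, 0.0593 for SLC11A2 and 0.0517 for SLC40A1 in KO LPS against WT LPS, and 0.114 for BLVRB in KO LPS BMS against KO. A crossed pairing of KO LPS, added after seeing the data, called 4651 genes in KO LPS against WT LPS and 7514 in KO LPS BMS against KO LPS. Groups of 2 limit every LPS comparison.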
